A study of Mus musculus with 24 samples.

Results

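Nnt, Wdfy1, Ide, Cyfip2 and Crb1 are 5 genes that are known to carry variants or to differ in expression between the mouse substrains C57BL/6J and C57BL/6N. They were picked by symbol, by a rule that uses no measured value, from the 55254 genes of 2 tables of gene counts, and all 5 were present and passed the filter on low counts in every fit. The tables hold nuclear RNA from the hippocampus of 6 months old male mice on a C57BL/6N background, in 4 genotypes: wild type (WT), Mutyh-/-, Ogg1-/-, and DKO, the double knockout bred from the single ones, which lacks both DNA glycosylases. Ogg1 and Mutyh start the repair of oxidized guanine, by removing the damaged base or the adenine paired with it. Hippocampal nuclei were sorted with an antibody against the neuronal protein NeuN into NeuN+ (neuronal) and NeuN- (non-neuronal) nuclei, which gave 8 groups of 3 libraries, 24 in all. The comparison of genotypes asked whether genes that mark the genetic background differed between the knockout and the WT libraries.

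Sister colonies of C57BL/6 mice have been bred apart for decades and have fixed different mutations, so that a difference between a knockout and a control colony can come from the background as well as from the targeted gene. Nnt encodes nicotinamide nucleotide transhydrogenase, an enzyme of the inner mitochondrial membrane that makes NADPH for the removal of peroxide, and C57BL/6J mice have lost several of its exons. Wdfy1 encodes an endosomal protein with a FYVE domain that assists signalling from Toll-like receptors. Ide encodes insulin-degrading enzyme, a zinc metallopeptidase that also cleaves amyloid beta, and a gain in its copy number has been described within C57BL/6J. Cyfip2 encodes a subunit of the WAVE regulatory complex, which drives branching of actin filaments, and a binding partner of the fragile X protein FMRP, and C57BL/6N mice carry an amino acid change in it. Crb1 encodes Crumbs 1, a polarity protein of the outer retina and of some brain cells, and C57BL/6N mice carry a frameshift in it that is known for retinal lesions. Counts per gene show neither exons nor variants, so the alleles of these mice were not read here.

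In the GENCODE vM21 annotation of the build GRCm38, all 5 genes lie on the minus strand and none on the chromosomes of the targeted genes. Nnt spans chr13:119335448-119408997, with 7037 exonic bases. A second entry of the same symbol lies within it and shares 3339 exonic bases with it, while the deposited tables have 1 line for Nnt, so that its level is uncertain. The study counted reads with an Ensembl annotation and not with GENCODE vM21, so the entries and lengths given here may differ from those counted. Wdfy1 spans chr1:79702262-79776143, with 6488 exonic bases, of which 126 overlap Mrpl44 on the opposite strand. Ide spans chr19:37268743-37337852 (7506 exonic bases), Cyfip2 chr11:46193850-46312859 (7103) and Crb1 chr1:139197056-139377100 (14432). Fndc9 lies within Cyfip2 on the opposite strand and shares 0 exonic bases with it. Since GRCm38 was built from C57BL/6J, reads from sequence that this substrain lacks could not be placed.

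The libraries held between 56563586 and 96192142 counts, and edgeR estimated a biological coefficient of variation of 0.0823 for NeuN+ and of 0.124 for NeuN-. Levels are given as TMM-normalized CPM, a gene's counts relative to the total of its library after the libraries of 1 cell type were scaled to each other, with the SD over 3 libraries. The RNA of Mutyh was higher, not lower, in the libraries labelled as lacking the gene. In NeuN+ it was at 1.14 ± 0.0738 CPM in WT, but libraries labelled Mutyh-/- had 10.1 ± 0.915 and those labelled DKO had 9.08 ± 1.79. In NeuN- the same groups had 2.84 ± 0.233, 10.3 ± 0.239 and 8.67 ± 1.43 CPM. Ogg1 was at 3.04 ± 0.477 CPM in NeuN+ of WT, and libraries labelled Ogg1-/- (3.15 ± 0.197) and DKO (3.07 ± 0.13) had no less of it. Counts per gene do not show which exons were read, so they cannot show whether an allele was disrupted. The study reports that the mice used for sequencing were genotyped again from tail DNA. Genotypes are named as the libraries were labelled. The summed level of 8 neuronal markers ranged from 5520 to 6460 CPM over the NeuN+ libraries and from 425 to 610 over the NeuN- libraries. That of 5 oligodendrocyte markers ranged from 107 to 128 and from 4910 to 7370 CPM, so both fractions carried the markers of their label. The fractions were sequenced on separate lanes, and an effect of the lane cannot be told apart from one of the cell type. The study's methods describe nuclei pooled from several animals of a genotype, and speak in general of independent biological replicates. Which animals or pools each RNA library came from is not stated, so the p-values below measure the spread between these libraries, which may be technical.

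The promoters of the members with the highest and the lowest RNA level, Cyfip2 and Crb1, are printed to show how unlike their start regions are. They are RefSeq sequences (GRCm38.p6, 300 bases around the start that RefSeq lists, most of them before it, minus strand), with each CG dinucleotide in capitals.
Cyfip2, chr11:46312309-46312608: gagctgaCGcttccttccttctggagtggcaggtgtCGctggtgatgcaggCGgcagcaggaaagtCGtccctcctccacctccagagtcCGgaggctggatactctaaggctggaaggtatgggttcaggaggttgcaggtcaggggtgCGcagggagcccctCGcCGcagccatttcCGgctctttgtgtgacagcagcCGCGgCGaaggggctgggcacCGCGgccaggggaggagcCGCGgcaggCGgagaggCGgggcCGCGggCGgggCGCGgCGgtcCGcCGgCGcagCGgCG
Crb1, chr1:139377027-139377326: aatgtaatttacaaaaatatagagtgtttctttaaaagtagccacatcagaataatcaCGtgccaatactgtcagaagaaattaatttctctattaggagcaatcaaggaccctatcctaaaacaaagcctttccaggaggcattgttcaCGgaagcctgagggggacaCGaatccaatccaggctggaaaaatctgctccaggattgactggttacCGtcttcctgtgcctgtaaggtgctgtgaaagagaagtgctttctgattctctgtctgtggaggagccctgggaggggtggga
The 300 bases at Cyfip2 held 29 CG dinucleotides and 70.67% G or C, and those at Crb1 held 4 and 44.33%. The median over 32851 promoters was 7, and 12.9% of them had as many as Cyfip2 or more, against 68.6% for Crb1. The promoter listed for Ide (chr19:37334495-37334794) held 0. Those of Cyfip2 and Ide lie wholly inside the gene as GENCODE draws it, which starts further upstream, and Nnt and Wdfy1 were not matched.

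Cyfip2 was by far the most abundant of the 5 genes in both cell types and Crb1 the least. Per length, the level of Cyfip2 in WT was 66.8 ± 0.982 RPKM (CPM per kilobase of exons, with all 24 libraries scaled together) in NeuN+ and 17.6 ± 0.376 in NeuN- (SD, n = 3), above 98.4% and 93% of the genes tested that had an annotated length. Crb1 was at 0.228 ± 0.043 RPKM in NeuN+ and 0.0895 ± 0.0175 in NeuN-, above 19.5% and 8.18% of those genes. The other 3 genes lay close together in between. In NeuN+ of WT, Wdfy1 was at 6.55 ± 0.303 RPKM, Nnt at 5.78 ± 0.267 and Ide at 5.51 ± 0.146, where the libraries of Nnt and Ide overlapped and those of the other neighbours in this order did not. In NeuN- of WT, Nnt was at 7.56 ± 0.205 RPKM, Wdfy1 at 6.56 ± 0.18 and Ide at 4.71 ± 0.287, with no overlap between neighbours. The order was the same in the other genotypes except that Ide (5.65 RPKM) stood before Nnt (5.55) in NeuN+ labelled Ogg1-/-, with overlapping libraries. The libraries of Nnt and Wdfy1 also overlapped in NeuN- of all 3 knockouts.

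Both Cyfip2 and Crb1 were higher in neuronal nuclei of WT. Cyfip2 was higher in NeuN+ by 1.93 on the log2 scale (standard error 0.0457, adjusted p = 5.95e-20 from the quasi-likelihood test of edgeR, Benjamini-Hochberg adjusted over all genes), and Crb1 by 1.34 (standard error 0.306, adjusted p = 4.68e-04). These 2 of 5 genes passed both thresholds of this comparison, an adjusted p under 0.05 and a log2 difference above 1, both of them as higher in NeuN+, where 42.9% of all 33523 genes tested passed them and 21.3% did so as higher. Nnt was lower in NeuN+ (log2 difference -0.39, adjusted p = 7.17e-07) and Ide higher (0.23, adjusted p = 1.04e-03), with differences below the threshold of size. The log2 difference of Wdfy1 was 0 (95% interval -0.1 to 0.09, adjusted p = 0.966). The WT libraries of the cell types did not overlap for 4 of the 5 genes, all but Wdfy1, as for 76.1% of all genes. An adjusted p under 0.05 without the threshold of size was reached by 4 of the 5 genes and by 72.4% of all genes.

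**Figure D1:**
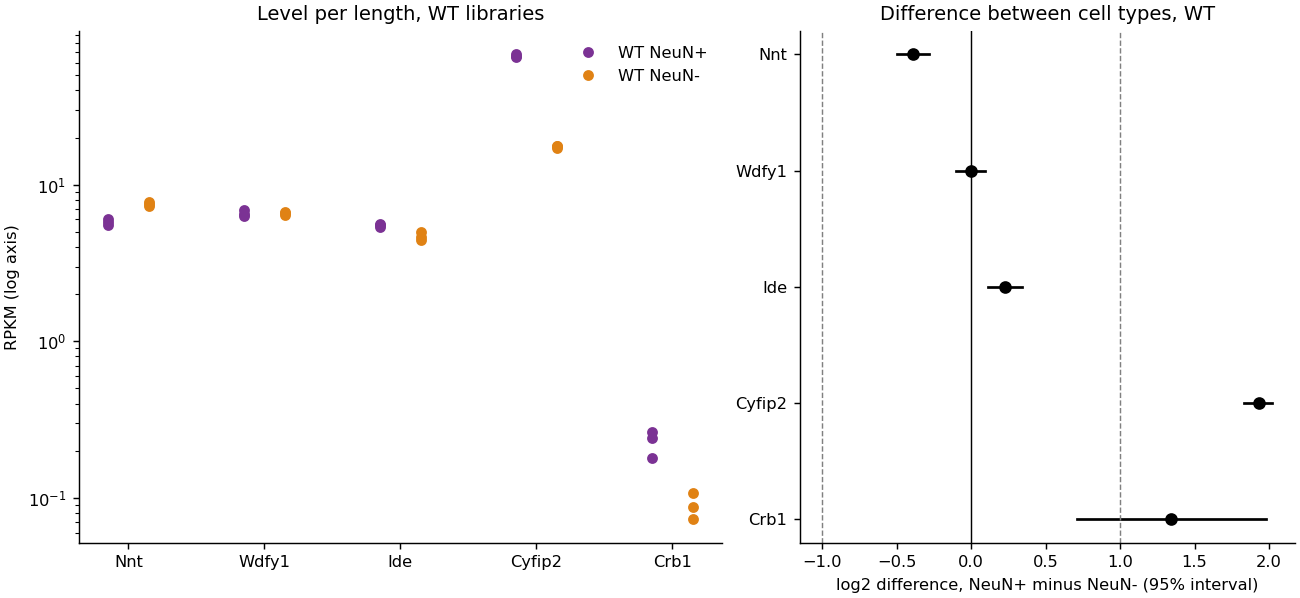
Left, the level per length of each gene in RPKM on a log axis, with 1 point for each of the 3 WT libraries of NeuN+ and of NeuN- nuclei. Right, the log2 difference between WT NeuN+ and WT NeuN- with its 95% interval, where the dashed lines mark the threshold of 1. Cyfip2 lies at 66.8 and 17.6 RPKM, far above the others, Crb1 lies at 0.228 and 0.0895 RPKM, and only the points of Cyfip2 and Crb1 lie beyond the dashed line.

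In each list of partners and relatives of the 5 genes, some members differed between the cell types of WT, beside 42.9% of all genes (21.3% as higher in NeuN+), so these counts are given as a description of the lists. Of 16 genes of the WAVE complex and its FMRP partners, 2 were higher in NeuN+ and 3 lower past both thresholds, with a median log2 difference of 0.05 against -0.01 over all genes. Among them, Wasf1 (2.31) and Abi2 (1.43) were higher in NeuN+, as Cyfip2 was, while Wasf2 (-2.36), Abi3 (-4.84) and Nckap1l (-5.87), paralogs of WAVE subunits with Nckap1l and Abi3 known from microglia and blood cells, were lower. Cyfip1, the paralog of Cyfip2, differed by 0.4 (adjusted p = 7.38e-06), below the threshold of size. Of 15 genes of mitochondrial NADPH supply and peroxide removal, 2 were higher in NeuN+ and 3 lower (median -0.31). Me3, a mitochondrial malic enzyme that makes NADPH, was higher (2.15), as was Sod2, the mitochondrial superoxide dismutase (1.38), whereas Idh2 (-1.5), Glud1 (-1.73) and Nadk2 (-1.2) were lower, and Nnt had the same sign as these. Of 15 genes of FYVE proteins, early endosomes and Toll-like receptor adaptors, 1 was higher and 6 lower (median -0.41), among them Tlr3 (-4.9), Tlr4 (-3.33), their adaptor Ticam1 (-1.77), and the relatives of Wdfy1, Wdfy4 (-5.51) and Wdfy2 (-1.19). Of 14 tested genes for metallopeptidases and insulin signalling, 2 were higher and 1 lower (median -0.05), with Mme, which encodes the amyloid-degrading neprilysin, higher by 2.1. Of 15 tested genes of the Crumbs and Par polarity complexes, 5 were higher and 3 lower (median 0.39), for example Lin7b (2.67) and Mpp3 (2.39) against Pard3 (-1.18). Genes named in this paragraph were chosen after their values were seen.

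None of the 5 substrain genes passed the test between a knockout and WT in either cell type. A gene was called where its adjusted p was under 0.05 and its absolute log2 fold change above 0.5. In NeuN+, 0 of 15 tests (5 genes in 3 knockouts) were called, where 0.428% of all 30132 genes tested were called for Mutyh-/-, 0.574% for Ogg1-/- and 0.302% for DKO. In NeuN-, 0 of 15 were called, against 0.273%, 0.229% and 0.116% of 31863 genes. With percentages this low, a count of 0 among 5 genes is near the background. DESeq2 also called 0 of 15 in each cell type, where it called 388, 238 and 173 of all genes in NeuN+ and 231, 179 and 178 in NeuN-. At an unadjusted p under 0.05, edgeR gave 0 of 15 tests in NeuN+, where 18.7%, 12.3% and 13.5% of all genes passed this limit in Mutyh-/-, Ogg1-/- and DKO. In NeuN-, edgeR gave 5 of 15, which were Nnt and Cyfip2 in Mutyh-/- and in Ogg1-/- and Cyfip2 in DKO, where 13.7%, 11.8% and 12.4% of all genes passed it. All 5 were lower than WT, as were 6.9%, 6.08% and 6.31% of all genes under this limit. These 5 tests share the WT libraries of NeuN-, so they are not separate observations. DESeq2 gave 0 in NeuN+, where it passed 16.5%, 10.4% and 11.6% of all genes, and 6 in NeuN-, where it passed 12.5%, 10.4% and 11.2%. Without Crb1, whose intervals were wide, the 95% intervals of the 12 fold changes lay between -0.19 and 0.12 on the log2 scale in NeuN+ (0.875-fold to 1.08-fold) and between -0.32 and 0.24 in NeuN- (0.799-fold to 1.18-fold), all inside the threshold of 0.5.

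**Figure D2:**
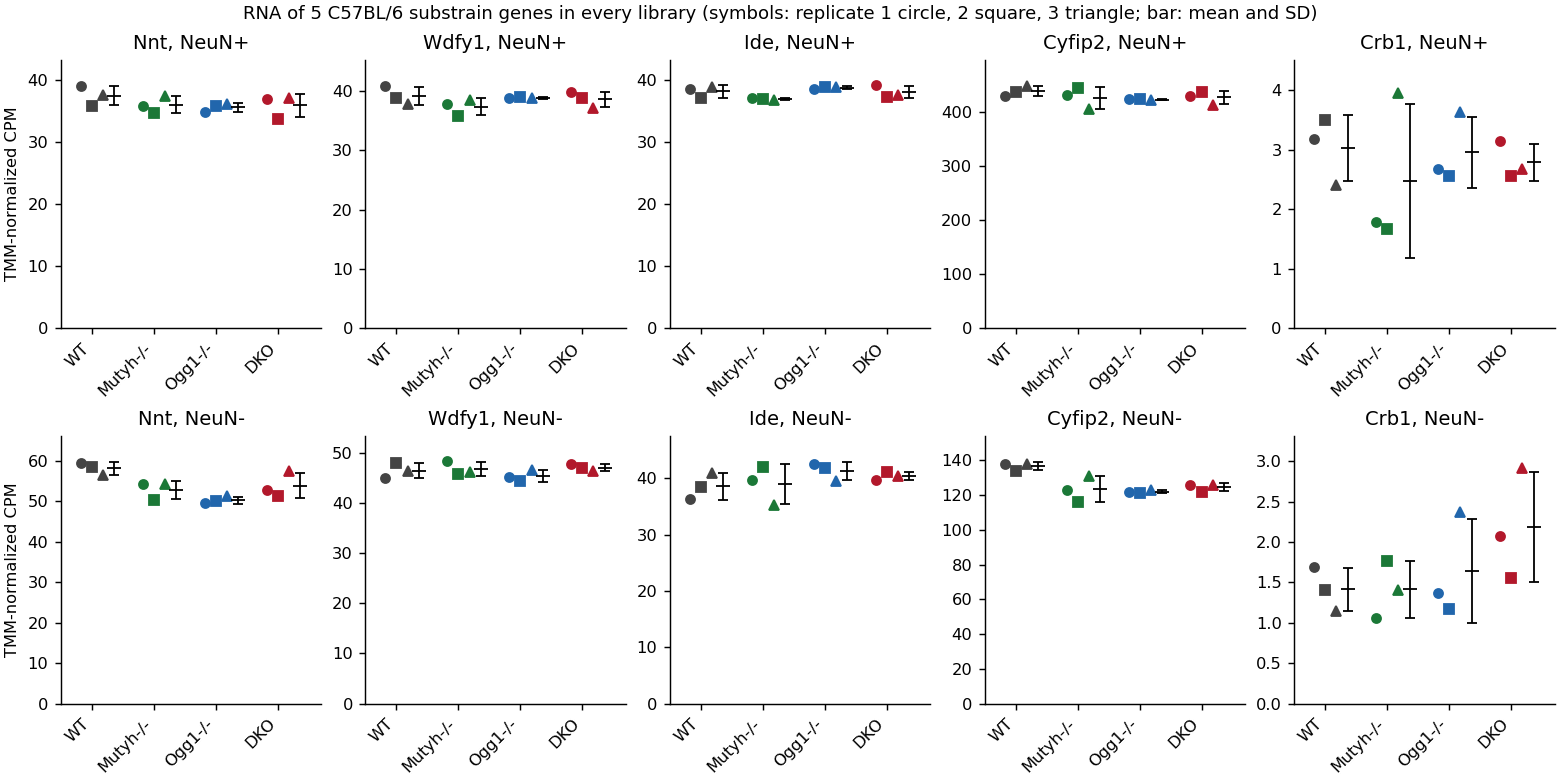
TMM-normalized CPM of the 5 genes (columns) in NeuN+ (top) and NeuN- nuclei (bottom), with 1 symbol for each library and the mean and SD of each genotype beside it, on axes that start at 0. The genotypes lie close together for Nnt, Wdfy1, Ide and Cyfip2, whose highest library was at most 1.21 times the lowest within a cell type, and only Crb1 scatters widely, up to 2.75 times in NeuN-.

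Nnt RNA was present in every library, at 33.8 to 39 CPM in NeuN+ and 49.6 to 59.6 CPM in NeuN-. In NeuN+, it was at 39, 35.9 and 37.6 CPM in WT, at 35.9, 34.7 and 37.5 in the libraries labelled Mutyh-/-, at 34.8, 35.9 and 36.2 in Ogg1-/- and at 37, 33.8 and 37.1 in DKO. All groups overlapped, and the log2 fold changes were between -0.08 and -0.06 (adjusted p from 0.603 to 0.67). In NeuN-, WT had 59.6, 58.4 and 56.5 CPM, the libraries labelled Mutyh-/- had 54.2, 50.3 and 54.2, Ogg1-/- had 49.6, 50 and 51.3, and DKO had 52.9, 51.4 and 57.5. Each library labelled Mutyh-/- or Ogg1-/- lay below each WT library, while DKO overlapped WT. The log2 fold change was -0.21 in Ogg1-/- (95% interval -0.32 to -0.1, adjusted p = 0.141 from edgeR), -0.14 in Mutyh-/- (-0.25 to -0.02, adjusted p = 0.278) and -0.11 in DKO (-0.22 to 0, adjusted p = 0.421). With DESeq2, the adjusted p in Ogg1-/- was 0.0184, with a fold change still under the threshold of size. The intervals lay inside a change of 0.5 in either direction, but they measure only the spread between these libraries, which may be technical.

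Cyfip2 also lay below WT in NeuN-, in all 3 knockouts, without passing the test. In NeuN-, it was at 138, 134 and 138 CPM in WT, at 123, 116 and 131 in the libraries labelled Mutyh-/-, at 122, 121 and 123 in Ogg1-/- and at 126, 122 and 126 in DKO. All 9 knockout libraries lay below the 3 of WT, with log2 fold changes of -0.15 (95% interval -0.25 to -0.04, adjusted p = 0.228), -0.16 (-0.26 to -0.06, adjusted p = 0.216) and -0.13 (-0.24 to -0.03, adjusted p = 0.309). The 3 comparisons share the same WT libraries, so they are not separate observations. Libraries that did not overlap WT in NeuN- were found for Nnt and Cyfip2 (2 of the 5 genes) in both single knockouts and for Cyfip2 in DKO, where 19.2%, 19.8% and 17% of all genes tested did not overlap. All of these members lay lower, as did 10.2%, 10.7% and 9.15% of all genes. Of the 8 neuronal markers, none was at 0 in a library. In NeuN-, WT libraries had 512 to 610 CPM of these markers (median 590), Mutyh-/- libraries 495 to 536 (495), Ogg1-/- libraries 431 to 521 (460) and DKO libraries 425 to 516 (432). The median was highest in WT, as the means of Nnt and Cyfip2 were, but each knockout overlapped WT. Taken singly, all 8 markers were lower than WT in each knockout, as were 51.2%, 49.8% and 48.5% of all genes. Their median log2 fold changes were -0.16 in Mutyh-/-, -0.28 in Ogg1-/- and -0.3 in DKO, against the same WT libraries. With edgeR 0 were called, and 4, 5 and 6 had an unadjusted p under 0.05, as had 13.7%, 11.8% and 12.4% of all genes. Among the knockouts, DKO had the lowest marker median. The means of Cyfip2 in the knockouts lay close together, at 123 ± 7.58 CPM in Mutyh-/-, 122 ± 0.941 in Ogg1-/- and 124 ± 2.35 in DKO. Those of Nnt were 52.9 ± 2.26, 50.3 ± 0.889 and 53.9 ± 3.15 CPM. The part of these neuronal markers in the values of Cyfip2 and Nnt was not tested. The summed level of 6 astrocyte markers, none at 0, was lower in WT (1330 to 1480 CPM) than in Ogg1-/- (1570 to 1850) and DKO (1570 to 1600), while Mutyh-/- (1240 to 1640) overlapped WT. That of the 5 oligodendrocyte markers, none at 0, was higher in WT (6490 to 7240 CPM) than in Ogg1-/- (5510 to 6130) and DKO (4910 to 6070), while Mutyh-/- (5980 to 7370) overlapped WT. The part of these markers was not tested either. In bulk libraries, fewer cells of a type and less RNA per cell cannot be told apart. In NeuN+, Cyfip2 was at 429, 437 and 448 CPM in WT, 430, 444 and 404 in Mutyh-/-, 423, 423 and 421 in Ogg1-/- and 429, 437 and 413 in DKO. The log2 fold changes there were between -0.05 and -0.04 (adjusted p from 0.67 to 0.745), although the Ogg1-/- libraries lay just below those of WT. This was the only one of the 15 comparisons with WT in NeuN+ whose libraries did not overlap, where 21.1%, 19.3% and 16.8% of all genes did not overlap in Mutyh-/-, Ogg1-/- and DKO.

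Wdfy1 was the steadiest of the 5 genes across genotypes in NeuN-. It was at 45.1, 48 and 46.4 CPM in WT, 48.4, 45.8 and 46.3 in the libraries labelled Mutyh-/-, 45.3, 44.4 and 46.7 in Ogg1-/- and 47.8, 47 and 46.4 in DKO, so that all groups overlapped. Its log2 fold changes there were 0.01, -0.03 and 0.02, each with a 95% interval inside -0.13 to 0.11 (adjusted p from 0.847 to 0.942). In NeuN+, it was at 40.9, 38.8 and 37.9 CPM in WT, 37.9, 35.8 and 38.5 in Mutyh-/-, 38.8, 39.1 and 38.8 in Ogg1-/- and 39.8, 38.9 and 37.2 in DKO. All knockouts overlapped WT, with log2 fold changes of -0.07, -0.01 and -0.02 (adjusted p from 0.506 to 0.956).

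Ide varied least of the 5 genes within NeuN+. In NeuN+, it was at 38.5, 37 and 38.9 CPM in WT, 37.1, 36.9 and 36.7 in the libraries labelled Mutyh-/-, 38.5, 38.9 and 38.8 in Ogg1-/- and 39.1, 37.3 and 37.6 in DKO. The highest of these 12 libraries was 1.07 times the lowest, and the pooled SD within genotypes, 0.0268 on the log2 scale, was above that of 1.23% of 2350 genes of like level. The log2 fold changes were -0.05, 0.02 and 0 (95% intervals inside -0.14 to 0.12). In NeuN-, the libraries were at 36.3, 38.5 and 41 CPM in WT, 39.8, 42.1 and 35.2 in Mutyh-/-, 42.6, 41.8 and 39.6 in Ogg1-/- and 39.8, 41.2 and 40.5 in DKO. All overlapped WT, with log2 fold changes of 0.02, 0.1 and 0.07 (adjusted p from 0.623 to 0.948).

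**Figure D3:**
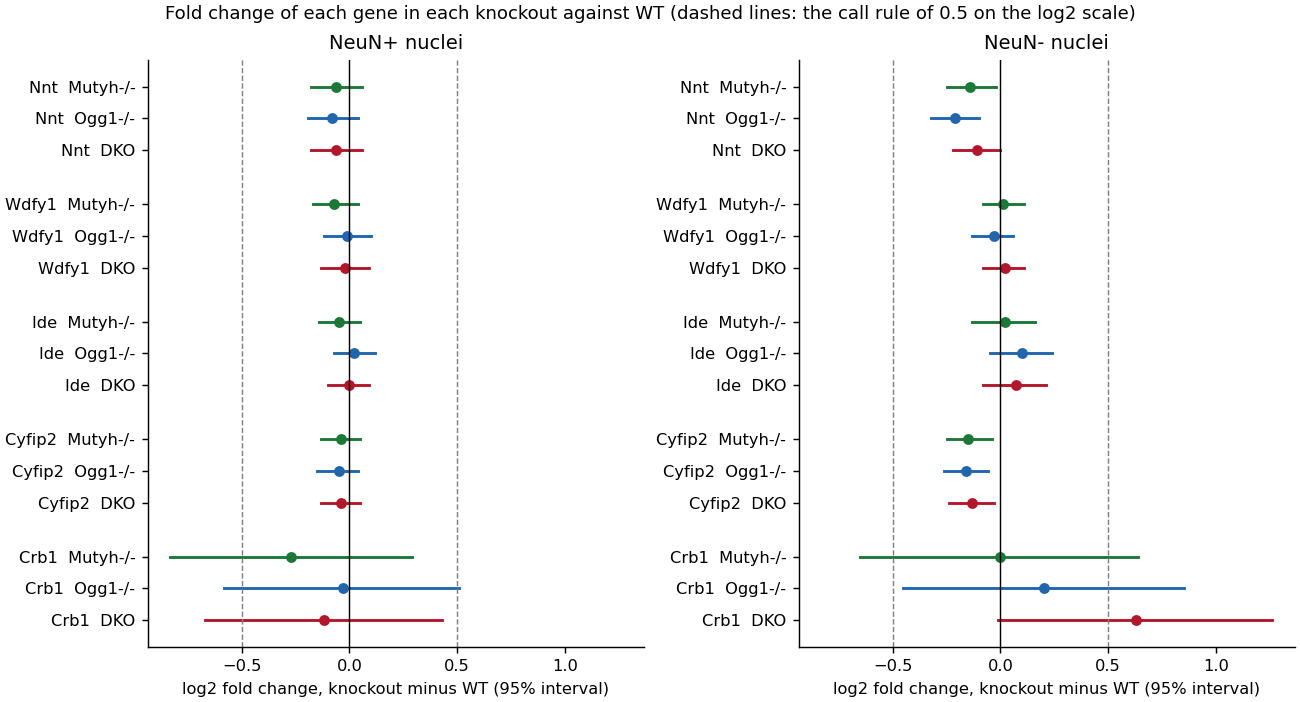
Log2 fold change of each gene in each knockout against WT (points) with its 95% interval (lines), in NeuN+ (left) and NeuN- nuclei (right), where dashed lines mark the threshold of 0.5. All intervals of Nnt, Wdfy1, Ide and Cyfip2 lie inside the dashed lines, those of Nnt in Ogg1-/- and Mutyh-/- and of Cyfip2 in all 3 knockouts lie below 0 in NeuN-, and those of Crb1 reach beyond the lines on at least 1 side.

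Crb1 was counted thinly, with 92 to 323 counts a library in NeuN+ and 76 to 188 in NeuN-, and it varied within genotypes. Its pooled SD within genotypes was 0.402 on the log2 scale in NeuN+ and 0.413 in NeuN-, above that of 98.5% and 92.1% of genes of like level. In NeuN+, WT had 3.18, 3.5 and 2.41 CPM, Ogg1-/- had 2.68, 2.55 and 3.64, and DKO had 3.14, 2.55 and 2.68. The libraries labelled Mutyh-/- split, with 1.79 and 1.66 CPM in replicates 1 and 2, below all other NeuN+ libraries, and 3.96 in replicate 3, above all of them. The fold change of Mutyh-/- against WT was -0.27 on the log2 scale (95% interval -0.83 to 0.29, adjusted p = 0.634), but without replicate 3 it was -0.81 (adjusted p = 0.0251), so this library decided the call. In NeuN-, WT had 1.69, 1.4 and 1.15 CPM, Mutyh-/- had 1.06, 1.77 and 1.41, Ogg1-/- had 1.37, 1.17 and 2.37, and DKO had 2.08, 1.56 and 2.92. The genotypes overlapped throughout. The largest fold change was that of DKO, 0.63 (95% interval -0.01 to 1.26, adjusted p = 0.413). Changes of Crb1 within these intervals were not detectable beyond the spread of its libraries. The summed level of 5 choroid plexus markers, none at 0, also varied between libraries of 1 genotype in NeuN-, from 16.9 to 111 CPM in Ogg1-/- and from 15.2 to 241 in DKO, and its part in the spread of Crb1 was not tested.

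No member passed the test between knockouts either. In the comparisons of Ogg1-/- with Mutyh-/-, DKO with Mutyh-/- and DKO with Ogg1-/-, 0 of 15 tests were called in NeuN+, where 0.485%, 0.139% and 0.216% of all genes were called, and 0 of 15 in NeuN-, against 0.521%, 0.122% and 0.132%. DESeq2 called 0 in both, where it called 223, 57 and 74 of all genes in NeuN+ and 303, 151 and 68 in NeuN-. At an unadjusted p under 0.05, edgeR gave 0 in NeuN+, where 12.7%, 6.86% and 4.26% of all genes passed this limit, and 0 in NeuN-, where 11.5%, 11% and 4.34% did. DESeq2 gave 0 in NeuN+ (10.8%, 5.48% and 3.02% of all genes) and 1 in NeuN- (10.3%, 10.2% and 3.38%). Libraries did not overlap in 3 of 15 comparisons in NeuN+, which were Wdfy1 (log2 fold change 0.06) and Ide (0.07) in Ogg1-/- against Mutyh-/- and Ide (0.04) in DKO against Mutyh-/-, where 17.4%, 10.5% and 9.54% of all genes did not overlap. In NeuN- this held for 1 of 15, Nnt in DKO against Ogg1-/- (0.1), where 16.2%, 13.4% and 8.51% did not overlap. The call in NeuN+ rested on the same library of Mutyh-/-, since without its replicate 3 Crb1 was called in 1 of these comparisons (adjusted p = 0.0381). A test for any difference among the 4 genotypes called 0 of 5 genes in each cell type, where it called 1.06% of all genes in NeuN+ and 0.76% in NeuN-. DESeq2 called 0 members as well, where it called 1410 of 30132 genes in NeuN+ and 1345 of 31863 in NeuN-. At an unadjusted p under 0.05 both tools gave 0 in NeuN+ and 2 in NeuN-. Of all genes, 15.4% and 13.5% passed this limit with edgeR and 14.3% and 14% with DESeq2. The 2 genes were Nnt (adjusted p = 0.235) and Cyfip2 (adjusted p = 0.275) with edgeR.

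Whether a knockout acted differently on these genes in the cell types was tested as the fold change in NeuN+ minus that in NeuN-. With edgeR 0 of 15 tests were called, and edgeR gave 0 and DESeq2 2 of 15 at an unadjusted p under 0.05, where edgeR called 0.0209%, 0.0537% and 0.0567% of 33523 genes for Mutyh-/-, Ogg1-/- and DKO and 8.58%, 7.09% and 9.4% passed the unadjusted limit (8.25%, 6.79% and 9.6% with DESeq2). DESeq2 called 0 members as well, where it called 81, 65 and 223 of the 33523 genes. For Nnt in Ogg1-/-, the gene and knockout with the largest fold change in NeuN- apart from Crb1, the difference was 0.14 (95% interval -0.01 to 0.3, adjusted p = 0.732). For Cyfip2 it was 0.09, 0.12 and 0.1 in the 3 knockouts (adjusted p from 0.643 to 0.745). The lower values of both genes in NeuN- were thus not shown to be particular to that cell type.

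Of 7 other genes known to differ between C57BL/6 substrains or sublines, 2 were called as higher in the libraries labelled Mutyh-/- in both cell types. Of all genes, 0.428% were called there in NeuN+ and 0.273% in NeuN-. In Ogg1-/- and DKO 0 were called, against 0.574% and 0.302% in NeuN+ and 0.229% and 0.116% in NeuN-. The list was chosen with earlier results of these data known, so its count beside these shares is a description and not a test. The 2 genes were Entpd4 and Entpd4b, near-identical copies of a gene for a nucleotide-hydrolysing enzyme of the Golgi and lysosome. Their values were nearly the same in every library, so they are not 2 separate observations. In GRCm38 they lie at chr14:69337174-69367270 and chr14:69555424-69585520, each with 8074 exonic bases, and how the counting split or shared their reads is not stated, so the level of each copy is uncertain. In NeuN+, Entpd4 was at 47.6, 50.8 and 45.8 CPM in WT, at 109, 91.6 and 131 in Mutyh-/-, at 45.6, 45.5 and 46.2 in Ogg1-/- and at 49.9, 45.9 and 61.7 in DKO. All 3 libraries labelled Mutyh-/- lay above the other 9, and replicate 3 was the highest library of Mutyh-/- and of DKO. The fold change was 1.2 on the log2 scale (standard error 0.113, adjusted p = 4.09e-05), and 0.13 in DKO (adjusted p = 0.668). In NeuN-, Entpd4 was at 36.6, 33 and 29 CPM in WT, 75.5, 59 and 116 in Mutyh-/-, 30.3, 29.6 and 33.8 in Ogg1-/- and 33.7, 31.4 and 46.3 in DKO. Here too the libraries labelled Mutyh-/- lay above the others, with replicate 3 highest in Mutyh-/- and DKO, and the log2 fold change was 1.35 (standard error 0.21, adjusted p = 0.0171). Without 1 of the WT libraries or replicate 1 of Mutyh-/-, the adjusted p in NeuN- was between 0.0565 and 0.0875. Entpd4b followed Entpd4, by 1.2 on the log2 scale in NeuN+ (adjusted p = 3.92e-05) and 1.36 in NeuN- (adjusted p = 0.0163). The other 5 genes of the list were not called in any knockout, among them Gabra2, a GABA-A receptor subunit that is low in C57BL/6J, with log2 fold changes between -0.2 and 0.08. Mmrn1, which a C57BL/6 subline lacks, had log2 fold changes from -0.54 to 0.07.

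**Figure D4:**
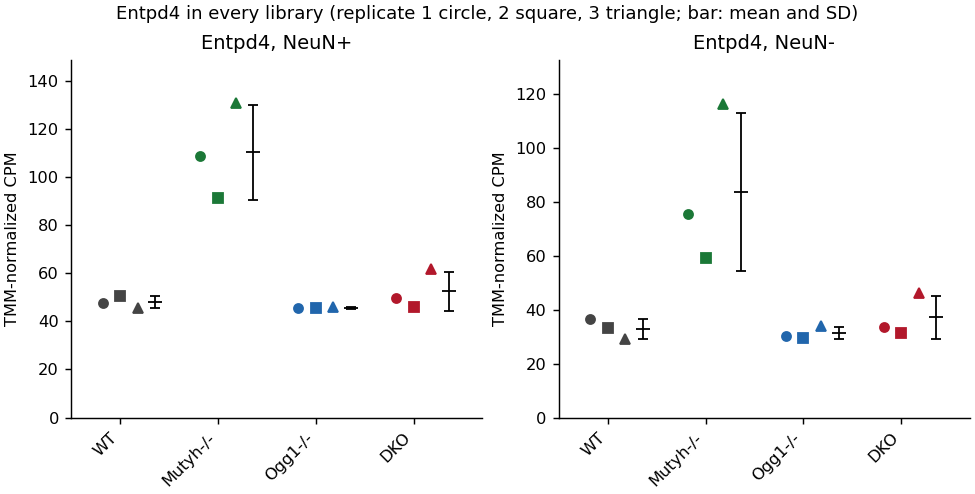
TMM-normalized CPM of Entpd4 in NeuN+ (left) and NeuN- nuclei (right), with 1 symbol for each library and the mean and SD of each genotype beside it, on axes that start at 0. The libraries labelled Mutyh-/- (91.6 to 131 CPM in NeuN+ and 59 to 116 in NeuN-) lie above all others, and replicate 3 of DKO, at 61.7 and 46.3 CPM, lies next below them.

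Among the partners and relatives of the 5 genes, 1 gene was called in a knockout, where 0.116% to 0.574% of all genes were, so that the count is near the background. Of the 15 genes of mitochondrial NADPH supply and peroxide removal, Prdx5, a mitochondrial and peroxisomal peroxiredoxin, fell by 0.52 on the log2 scale in NeuN+ labelled Ogg1-/- (standard error 0.103, adjusted p = 0.0256). It was at 8.13, 8.25 and 8.8 CPM in WT and 6.22, 5.76 and 5.54 in Ogg1-/-. The libraries did not overlap, and the adjusted p was between 0.0582 and 0.149 when 1 of the WT libraries or replicate 2 or 3 of Ogg1-/- was left out. In the same cell type it was at 7.29, 6.53 and 5.54 CPM in Mutyh-/- and 6.91, 6.07 and 5.5 in DKO, where it was not called. The other lists had 0 members called in each knockout and cell type: 15 genes of FYVE proteins, endosomes and Toll-like receptor adaptors, 14 of metallopeptidases and insulin signalling, 16 of the WAVE complex and 15 of the polarity complexes. At an unadjusted p under 0.05, edgeR gave 0 to 5 genes a comparison in each of these other lists, where 11.8% to 18.7% of all genes passed this limit. Their median log2 fold changes lay between -0.06 and 0.02, and those over all genes between -0.01 and 0.01. The median of the NADPH and peroxide list lay between -0.05 and -0.01. At the unadjusted limit, edgeR gave 8, 4 and 5 of its 15 genes in NeuN+ of Mutyh-/-, Ogg1-/- and DKO. Of all genes, 18.7%, 12.3% and 13.5% passed there, so these counts lie above the shares of all genes. In NeuN- the list had 2, 4 and 1, where 13.7%, 11.8% and 12.4% of all genes passed. The comparisons within a cell type share its WT libraries.

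**Figure D5:**
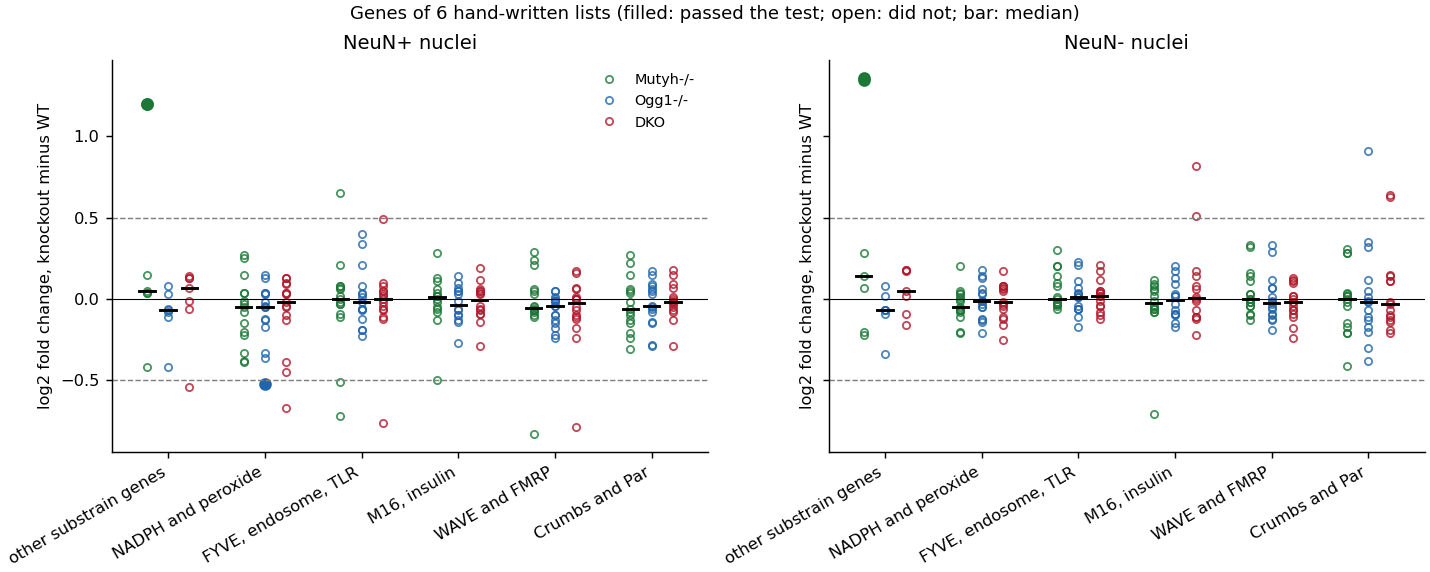
Log2 fold change of each gene of 6 lists in each knockout against WT, in NeuN+ (left) and NeuN- nuclei (right), with filled points for genes that passed the test, open points for the others and a bar for the median of each list and knockout. The filled points are Entpd4 and Entpd4b, at 1.2 in NeuN+ and at 1.35 and 1.36 in NeuN-, and Prdx5, at -0.52 in NeuN+, and the medians lie between -0.07 and 0.14.

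No gene close to the 5 members was called in a knockout with edgeR, which at 0.116% to 0.574% of all genes called is near the background. Within 1 Mb of Nnt, 0 of 24 genes tested in NeuN+ and 0 of 30 in NeuN- were called in any knockout against WT. The counts were 0 of 15 and 0 of 17 around Wdfy1, 0 of 30 and 0 of 28 around Ide, 0 of 21 and 0 of 26 around Cyfip2, and 0 of 27 and 0 of 30 around Crb1. At an unadjusted p under 0.05, edgeR gave 0 to 8 genes a region and comparison, where 11.8% to 18.7% of all genes passed this limit. A count of 8 is above these shares for a region of any of these sizes. The median log2 fold change was between 0.02 and 0.14 around Crb1, between -0.19 and -0.01 around Cyfip2 and between -0.11 and -0.01 around Nnt, over comparisons that share the WT libraries of a cell type. Around Ide it was between -0.04 and 0.16 and around Wdfy1 between -0.02 and 0.05, beside medians over all genes between -0.01 and 0.01.

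How the 5 genes varied together was described over the 24 libraries, on log2 CPM centred on the mean of each cell type, where the points share libraries, depth and the mix of cells. Nnt and Cyfip2 went together (Pearson r = 0.56), and Ide went against Cyfip2 (r = -0.5) and Nnt (r = -0.4), while the other 7 pairs lay between -0.27 and 0.34. Among 28490 other genes tested in both cell types, Cyfip2 was most like Ppfia3 (r = 0.87), a liprin of the presynaptic active zone, and next like Nipsnap1 (0.82). Ide was most like Pde8b (0.91), a phosphodiesterase, and Garem1 (0.86) was also among the 3 most similar genes. Nnt was most like Olfm3 (0.8), and Gm35394 and Gm48482 (0.79 each) came next. Wdfy1 was most like Uap1l1 (0.8), Gm17137 (0.76) and Ptprc (0.75), which encodes the leukocyte antigen CD45. Crb1 was most like Lmx1b (0.84), a LIM-homeodomain transcription factor, Dytn (0.83) and Gpr141 (0.82), which were at 1.59, 0.465 and 0.392 CPM on average.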

How the data were processed

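Nuclear RNA of 24 libraries, 3 for each of 4 genotypes in NeuN+ and in NeuN- nuclei, was analysed from 2 deposited tables of counts for 55254 gene symbols. Per the labels and the study's methods, the authors aligned paired reads from a stranded total RNA kit to GRCm38/mm10 with HISAT2 (2.1.0), used SAMtools (1.10), and made the deposited raw counts with featureCounts in R (4.3.2); the settings for strand, overlapping genes and reads with several matches are not given in the sources used here. Counts were used as deposited, in R 4.3.3. Each cell type was fitted with its 4 genotypes together by edgeR's (4.0.16) quasi-likelihood test, after TMM scaling and filterByExpr, with 30132 genes left in NeuN+ and 31863 left in NeuN-. Cell types and the difference of a knockout's effect between them were tested in 1 fit of all 24 libraries (33523 genes). P-values were adjusted by the Benjamini-Hochberg method over all genes. The thresholds between genotypes follow the study (adjusted p under 0.05, log2 fold change beyond 0.5 in either direction). CPM, RPKM and their SD were computed from the counts. RPKM used exonic lengths of GENCODE vM21, not of the Ensembl annotation that the study counted with. Depth was 56563586 to 96192142 counts a library. Alternatives were DESeq2 (1.42.0), its size factors in edgeR, no filter, a minimum of 10 counts in every library, the replicate number as a block, fits of 2 genotypes, and leaving out each library. The scripts were tested on simulated data. The genes, lists and tests were chosen with earlier results of these data known. Outside the members, genes are named where a list gene or neighbour was called in a knockout against WT, as targeted genes, or among the 3 most similar to a member, some of which are not reported here; list genes named for cell type were chosen after their values were seen. In any 2 replicates, at least 94.9% of the genes with a count differed, so none were counted as 1 library.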

Additional observations from a re-analysis of the deposited data

How the results depend on the processing

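Counts of called members stayed the same under each alternative that kept all libraries: 0 for each knockout against WT, for knockouts against each other, for any difference among genotypes and for the difference of effects between cell types, and 2 for WT NeuN+ against NeuN-. Leaving out 1 library at a time gave 0 to 1 for each knockout against WT in NeuN+ and 0 to 1 for knockouts against each other in NeuN+, in both cases 1 only without replicate 3 of Mutyh-/- (Crb1, log2 fold change -0.81), and the other counts did not move.

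Among single values under the alternatives that kept all libraries, 198 kept direction and call, and 7, all near 0, changed sign. Ide in DKO against WT in NeuN+ (-0.005) was 0.001 with DESeq2 or its size factors and 0.009 without the filter. Crb1 in Mutyh-/- against WT in NeuN- (-0.001) was 0.004 with DESeq2's size factors, 0.003 without the filter, 0.005 with DESeq2 and 0.001 with only the 2 genotypes fitted. The cause was not tested. Leaving out 1 library, 185 values kept direction and call, 24 changed sign and 1 (Crb1, above) passed the test. Where a sign changed, the log2 values ranged in NeuN+ from -0.035 to 0.02 (Wdfy1) and -0.215 to 0.08 (Crb1) for Ogg1-/-, and from -0.045 to 0.01 (Wdfy1), -0.025 to 0.009 (Ide) and -0.26 to 0.004 (Crb1) for DKO. In NeuN- they ranged from -0.012 to 0.036 (Wdfy1), -0.046 to 0.085 (Ide) and -0.197 to 0.168 (Crb1) for Mutyh-/-, from -0.156 to 0.395 (Crb1) for Ogg1-/- and from -0.005 to 0.037 (Wdfy1) for DKO. Wdfy1 in WT NeuN+ against NeuN- ranged from -0.039 to 0.027. The lowest adjusted p of Cyfip2 in Mutyh-/- against WT in NeuN- was 0.0494, without replicate 3 of Mutyh-/-, with a fold change under the threshold of size.

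Entpd4 and Entpd4b kept their direction in all alternatives, which were added after the data were seen, with log2 fold changes from 1.06 to 1.32 in NeuN+ and from 1.03 to 1.55 in NeuN-, and Prdx5 from -0.57 to -0.487. Of the values of list genes named between cell types, 262 kept direction and call and 1 lost the call.

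With the replicate number as a block, 0 of the 15 tests of each knockout against WT were called in NeuN+ and 0 in NeuN-, as without it, and 2 members between cell types. Within a cell type, libraries of the same number did not deviate together (mean correlation 0.00 in NeuN+, 4 of 18 pairs over 0.1, and 0.05 in NeuN-, 5 of 18). Between the cell types of 1 genotype, all 12 same-numbered pairs had a correlation above 0 (0.02 to 0.34, mean 0.14, 8 of 12 over 0.1). This is a hint from the data that the number ties them. The other pairs had a mean of -0.07, but centring each gene on its group mean ties this value to that of the same-numbered pairs. It adds no support. Over all genes, edgeR called 129, 173 and 91 genes in Mutyh-/-, Ogg1-/- and DKO against WT in NeuN+ and 87, 73 and 37 in NeuN-, against 388, 238 and 173 and 231, 179 and 178 with DESeq2, 625, 308 and 252 and 114, 97 and 73 without the filter, 113, 235 and 171 and 83, 76 and 63 with the block, and 272, 305 and 140 and 120, 147 and 10 with 2 genotypes fitted. Between cell types, 14371 genes were called, and 8615 with at least 10 counts in every library. Crb1, at 76 to 323 counts a library, had the widest intervals of the members, and its SD within genotypes (0.402 and 0.413 on the log2 scale) was above the median of genes of like level (0.154 and 0.204).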
